A study of Mus musculus with 26 samples.

Results

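The 10 genes described here are regulators and markers of the epithelial-mesenchymal transition (EMT): the transcription factors Snai2, Zeb1, Zeb2, Twist1, Twist2, Prrx1 and Tcf4, and the structural genes Vim, Cdh2 and Fn1. They were taken by name out of the 45318 genes in the RNA-seq count files, and each was read library by library. In EMT, epithelial cells loosen their E-cadherin junctions and take on a spindle shape and motility. SNAIL, ZEB and TWIST factors bind E-box motifs and repress epithelial genes such as Cdh1, which encodes E-cadherin, whereas vimentin, N-cadherin and fibronectin mark the mesenchymal state. In mammary carcinoma this program has been studied mostly in connection with invasion, and many tumor cells hold epithelial and mesenchymal traits together.

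All cells of the RNA-seq libraries were 4T1, a triple-negative mammary carcinoma line of BALB/c mice, and the labels give no treatment. The ChIRP-seq peaks described further below came from 4T1 cells and from MMTV-Neu-NDL mammary tumor cells of FVB mice. The 2 control libraries, labelled wild type, came from cells that received an sgRNA against Renilla luciferase. The 3 KO1 and 4 KO2 libraries are labelled MaTAR25-/- and came from cells in which paired sgRNAs had deleted the region around the transcription start of the lncRNA MaTAR25. Per the study's methods such lines were grown from single sorted cells, so a difference between KO1 and KO2 cannot be told apart from a difference between clones. No source used here says that the libraries of a group came from separate cultures, so the p-values measure the spread between libraries, which may be technical.

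Counts on genes ran from 25367211 to 61110585 per library. The targeted lncRNA MaTAR25 (1200007C13Rik) was counted 35 and 30 times in control, against 2, 7 and 0 times in KO1 and 11, 1, 9 and 6 times in KO2. The KO2 libraries varied more than those of KO1, with correlations of log2 expression of 0.938 to 0.970 among them against 0.980 to 0.985 among the KO1 libraries. KO2 replicate 3 correlated with the other KO2 libraries at 0.938 to 0.967, a range that overlapped theirs with one another (0.9504 to 0.970). With the KO1 libraries it correlated at 0.946 to 0.954, within its range with KO2, and 0.954 was the highest value between libraries of different groups. It differed from the other KO2 libraries at Vim, Zeb2 and several epithelial genes, and results that rest on it are given with and without it. Epithelial markers of the labelled cell type were present in all 9 libraries. Cdh1 lay between 354 and 940 CPM (counts scaled to a common library size) and Krt8 between 411 and 1411. Krt14, also listed as a marker of 4T1, was lower at 1.23 to 17.1 CPM, and the macrophage marker Adgre1 had 0 counts. Cdh1 and Krt8 mark epithelial cells in general, not this line alone. Of the receptors that triple-negative cells lack, Pgr had at most 1 count in a library, but Esr1 was at 10.2 to 25.2 CPM and Erbb2 at 56.8 to 140 CPM. Some markers of other cells differed between groups, although for each kind of cell the sums of at least some groups overlapped. The 7 leukocyte markers summed to 3.20 to 4.24 CPM in control, 11.5 to 28.5 in KO1 and 1.98 to 20.4 in KO2, nearly all of it Cd68, with Adgre1 at 0 throughout. The 5 endothelial markers summed to 0.263 to 0.275, 0.127 to 0.271 and 0.362 to 1.77 CPM, with Cdh5 at 0 in KO1. The 8 fibroblast markers summed to 21.2 to 26.3, 21.3 to 40.5 and 11.8 to 48.0 CPM, with Thy1, Dcn, Lum and Col3a1 at 0 in all 9 libraries. Pdgfra alone was at 11.7 to 46.9 CPM. The part of these markers in the results below was not tested.

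The 3 stretches of mouse sequence printed here belong to the results that follow. The first 2 are promoters of Vim and Zeb2, whose transcripts were high in the same 3 KO2 libraries. The RefSeq promoter table (GRCm38.p6, 250 bases before to 50 after a start) held 5 of the 10 genes. Capitals mark textbook promoter motifs found on either strand: the TATA box, TATAAA, the CAAT box, CCAAT, the GC box, GGGCGG, and the AP-1 motif, TGANTCA. None overlapped another here. The E-box, CANNTG, and its form read as CAGGTG, were also searched. The Vim promoter lies at chr2:13574061-13574360 on the plus strand, and the Zeb2 promoter at chr2:45110228-45110527 on the minus strand belongs to 1 of the 4 Zeb2 starts in the table. Which Zeb2 start these cells use was not tested.
Vim promoter: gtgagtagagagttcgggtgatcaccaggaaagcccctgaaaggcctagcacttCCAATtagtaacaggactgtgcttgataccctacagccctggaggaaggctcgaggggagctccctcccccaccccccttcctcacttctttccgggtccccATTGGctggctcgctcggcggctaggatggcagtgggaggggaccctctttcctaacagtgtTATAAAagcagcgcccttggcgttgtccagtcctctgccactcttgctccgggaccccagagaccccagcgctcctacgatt
Zeb2 promoter: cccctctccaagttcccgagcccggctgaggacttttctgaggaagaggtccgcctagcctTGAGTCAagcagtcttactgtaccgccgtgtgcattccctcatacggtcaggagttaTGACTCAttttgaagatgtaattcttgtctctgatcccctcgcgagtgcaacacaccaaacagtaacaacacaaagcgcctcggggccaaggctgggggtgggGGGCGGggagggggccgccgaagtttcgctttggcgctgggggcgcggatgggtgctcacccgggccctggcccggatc

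The Vim window held TATAAA 32 bases before the start and CCAAT, as either strand reads it, 94 and 196 bases before it. In the Zeb2 window the AP-1 motif occurred 132 and 189 bases before the start, and the GC box 29 bases before it. The windows of the other 3 Zeb2 starts held no AP-1 motif, and held the CAAT box (1 start) or the GC box (2 starts, whose windows overlap). Among all 32851 promoters of the table, 13.6% held TATAAA, 37.4% CCAAT, 35.7% GGGCGG and 7.81% TGANTCA. The letters CANNTG were in neither window, nor in the windows of the other Zeb2 starts or of Twist1, Twist2 and Prrx1. Of all promoters, 72.3% held CANNTG and 20.2% held CAGGTG.

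The third stretch is a MaTAR25 ChIRP-seq site inside Fn1. ChIRP-seq pulls down chromatin with biotinylated oligos antisense to an RNA. The 200 bases below, chr1:71614871-71615070 on the minus strand of GRCm38, lie in a peak in an intron of Fn1 that all 3 4T1 peak lists held. Capitals mark the 12 bases that equal the reverse complement of part of MaTAR25 oligo 4 of the pulldown, whose own 12 matching bases are in capitals on the second line.
Fn1 intron: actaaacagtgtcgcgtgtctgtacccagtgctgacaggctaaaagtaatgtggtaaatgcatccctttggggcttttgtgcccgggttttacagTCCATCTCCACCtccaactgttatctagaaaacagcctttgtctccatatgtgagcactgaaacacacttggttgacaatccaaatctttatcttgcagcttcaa
MaTAR25 oligo 4: caggtGGTGGAGATGGAatg

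The mesenchymal structural genes gave the widest range of levels. Vim encodes vimentin, an intermediate filament protein (ENSMUSG00000026728, chr2:13573927-13582826). Its normalised level was 381 and 258 CPM in control, 321, 306 and 978 CPM in KO1, and 2858, 3143, 575 and 2775 CPM in KO2, in replicate order. All KO2 libraries lay above both controls, 3 of them far above and replicate 3 nearer to them, and KO1 replicate 3 stood above the other KO1 libraries. In bulk RNA, fewer cells with a transcript and less of it per cell cannot be told apart.

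In KO2 against control the log2 fold change of Vim was 2.87 (SE 0.75, n = 4 and 2, adjusted p = 0.0234, from the quasi-likelihood F test of edgeR, adjusted by Benjamini-Hochberg over 15023 genes). Without KO2 replicate 3 it was 3.20 (adjusted p = 0.00463). Leaving out either control library ended the call (adjusted p = 0.132 without replicate 1 and 0.183 without replicate 2); the lone control was then assumed to vary like the other groups. KO1 did not pass the test against control (log2 fold change 0.75, SE 0.69, adjusted p = 0.467), and without KO1 replicate 3 the value was -0.02. KO2 lay above KO1 by 2.13 on the log2 scale (SE 0.61, adjusted p = 0.0517), and that call was lost without KO1 replicate 1 (adjusted p = 0.164) or KO1 replicate 2 (adjusted p = 0.188).

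Fn1 encodes fibronectin, the extracellular matrix protein that integrins bind (ENSMUSG00000026193, chr1:71585520-71653200, minus strand). It was the most abundant of the 10 genes by CPM in the control, with 2472 and 2527 CPM. In KO1 the libraries held 1292, 1702 and 1334 CPM, and in KO2 3660, 2519, 1877 and 3698 CPM. Every KO1 library lay below both controls, whereas the KO2 libraries lay on either side of them and all above KO1.

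Fn1 fell in KO1 by 0.79 on the log2 scale (SE 0.27, adjusted p = 0.0627). The call was lost without Control replicate 1 (adjusted p = 0.228), Control replicate 2 (0.234), KO1 replicate 1 (0.154) or KO1 replicate 3 (0.158). Against control, KO2 gave 0.23 (SE 0.26, adjusted p = 0.551), so that no difference was shown there. KO2 exceeded KO1 by 1.03 (SE 0.24, adjusted p = 0.0263), and this call held with each of the 9 libraries left out in turn, the log2 fold change staying between 0.90 and 1.19. Exons of Fn1 overlap those of Apol7d on the other strand; the library kit does not mark strand, so reads of the shared stretch cannot be assigned.

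Cdh2 encodes N-cadherin, the cadherin that often replaces E-cadherin in EMT, and lies on chromosome 18. It had 0 counts in all 9 libraries. A count of 0 allows up to 3 counts, which is 0.0478 to 0.126 CPM depending on the library, a limit for counting error only. No fold change was computed for it.

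**Figure D1:**
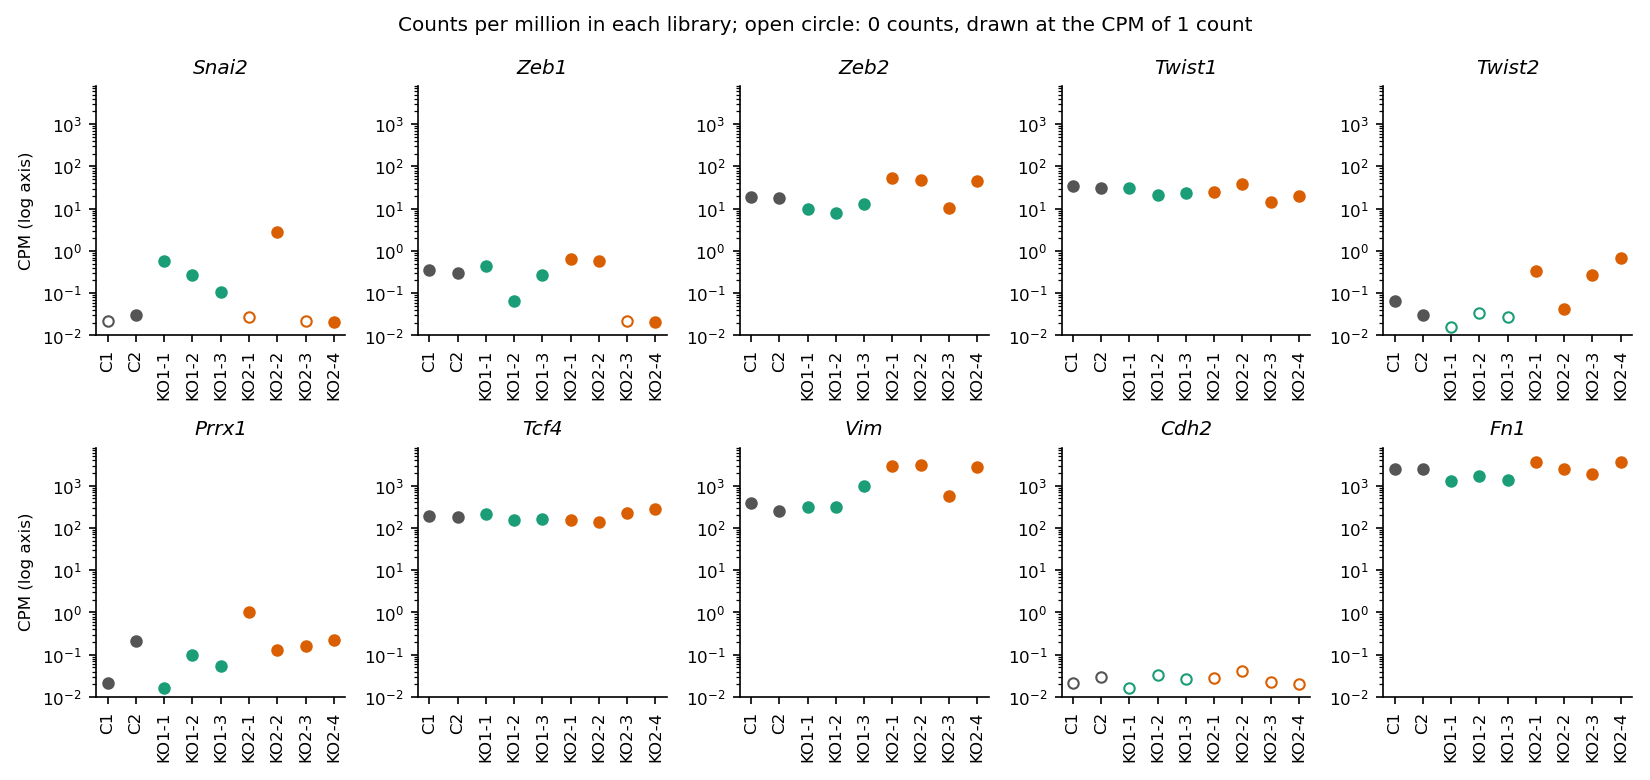
CPM (log axis) of each of the 10 genes in the 9 libraries (C1 and C2 control, then KO1 and KO2 by replicate); each point is 1 library, and an open circle marks 0 counts, drawn at the CPM of 1 count. Vim and Zeb2 are high in KO2 replicates 1, 2 and 4 and not in replicate 3, Twist1 and Tcf4 vary little, and Cdh2 is at 0 in all 9.

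The ZEB factors are zinc finger repressors of Cdh1. Zeb2 (ENSMUSG00000026872, chr2:44983632-45117395, minus strand) was at 18.5 and 18.2 CPM in control. KO1 held 9.83, 7.86 and 12.6 CPM, all below the controls, and KO2 held 52.9, 48.4, 10.4 and 44.1 CPM. Thus 3 KO2 libraries lay above both controls, and replicate 3 lay below them, within the range of KO1.

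Against control, neither KO1 (log2 fold change -0.87, SE 0.53, adjusted p = 0.264) nor KO2 (1.08, SE 0.53, adjusted p = 0.170) passed the test over all libraries. Leaving out KO2 replicate 3 brought both past it, with a value of -0.87 and adjusted p = 0.0188 for KO1, and 1.40 and adjusted p = 0.00442 for KO2. Between the clones, Zeb2 was higher in KO2 by 1.95 (SE 0.47, adjusted p = 0.0316), and by 2.27 without KO2 replicate 3 (adjusted p = 0.000956). The call was lost without KO1 replicate 1 (adjusted p = 0.105) or KO1 replicate 2 (adjusted p = 0.137). Exons of Zeb2 overlap those of Zeb2os, on the opposite strand, and of 2 small RNA genes.

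Zeb1, on chromosome 18, was near the limit of detection: 16 and 10 counts in control, 28, 2 and 10 in KO1, and 23, 14, 0 and 1 in KO2. These are 0 to 0.641 CPM, and the groups overlapped. Its log2 fold changes were -0.27 (SE 1.30) in KO1 and -0.16 (SE 1.25) in KO2 against control, with adjusted p = 0.901 and 0.941, and at this depth no difference was detectable.

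Snai2 encodes SLUG, a zinc finger repressor of the SNAIL family (ENSMUSG00000022676, chr16:14705852-14709385). It had 0 and 1 counts in control, 37, 8 and 4 in KO1, and 0, 65, 0 and 1 in KO2. KO1 thus lay above control in 3 of 3 libraries, and in KO2 65 of 66 counts came from replicate 2. The ratio of summed KO1 to control counts, scaled to library size, was 29.6, with an exact 95% interval of 5.06 to 1191 that covers counting error only, and 14.0 (2.07 to 599) without KO1 replicate 1. KO1 did not pass the test against control (log2 fold change 4.37, SE 2.99, adjusted p = 0.320), nor did KO2 (5.31, SE 2.90, adjusted p = 0.214), and for KO2 the sign turned to -0.59 without replicate 2. Against KO1, KO2 gave 0.94 (SE 1.60, adjusted p = 0.735) over all libraries but -4.98 without KO2 replicate 2 (adjusted p = 0.0245). Snai2 passed in KO1 against control with those groups alone in the fit (adjusted p = 0.0257) and without KO2 replicate 2 (adjusted p = 0.0292).

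The TWIST factors are basic helix-loop-helix proteins that pair with E proteins. Twist1 (ENSMUSG00000035799, chr12:33957671-33959829) had 33.7 and 31.0 CPM in control, 30.2, 20.8 and 23.4 in KO1, and 25.0, 37.8, 14.8 and 20.0 in KO2. KO1 lay below control in 3 of 3 libraries and KO2 in 3 of 4, with replicate 2 above. Neither difference passed: the log2 fold change was -0.38 (SE 0.35, adjusted p = 0.456) in KO1 and -0.41 (SE 0.33, adjusted p = 0.393) in KO2. Between the clones it was -0.03 (SE 0.29, adjusted p = 0.962).

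Twist2 (ENSMUSG00000007805, chr1:91801461-91848028) was present only as a few reads, 3 and 1 counts in control, 0 in each KO1 library, and 12, 1, 12 and 33 in KO2. Scaled to library size, the 58 counts over KO2 were 16.4-fold a floor of 3 counts over the KO1 group, which had none. The exact 95% interval of the ratio of KO2 to KO1 began at 12.9, for counting error only. Of these counts 33 came from KO2 replicate 4, without which the 2 values were 10.4 and 7.87. The difference between the clones passed the test at adjusted p = 0.0239 and with each of the 9 libraries left out in turn; its fitted log2 fold change of 6.80 (SE 1.38) depends on the prior count and is no bound. In KO2 against control the ratio of summed counts was 7.44 (exact 95% interval 2.75 to 28.2, counting error only), or 4.72 without KO2 replicate 4, and the test gave adjusted p = 0.101. All KO1 libraries lay below control at a log2 fold change that did not pass (adjusted p = 0.144). The controls held 3 and 1 counts, within the 3 counts that a count of 0 allows, so no separation was shown. Exons of Twist2 overlap those of Gm29100 on the other strand.

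Prrx1, a paired-type homeobox factor of mesenchymal tissue (ENSMUSG00000026586, chr1:163245119-163313710, minus strand), had 1 and 7 counts in control, 1, 3 and 2 in KO1, and 36, 3, 7 and 11 in KO2. It did not pass the filter on low counts and had no test in the fit used here. Every KO2 library exceeded every KO1 library in CPM, but KO2 replicate 2 and KO1 replicate 2 both held 3 counts, so their order rests on library size alone. KO2 replicate 1 held 1.00 CPM against 0.225 CPM in the next highest KO2 library. Of the summed KO2 and control counts, 57 and 8, the scaled ratio was 3.65 (exact 95% interval 1.73 to 8.87, counting error only), and 1.76 (0.749 to 4.59) without KO2 replicate 1.

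Tcf4 encodes the E protein E2-2, a dimer partner of the TWIST factors, and lies on chromosome 18. It was the steadiest of the abundant genes here, at 191 and 180 CPM in control, 215, 152 and 159 in KO1, and 153, 141, 226 and 278 in KO2. The KO1 and KO2 values lay on both sides of the controls. Its log2 fold change was -0.08 (SE 0.29, adjusted p = 0.859) in KO1, 0.11 (SE 0.27, adjusted p = 0.805) in KO2 and 0.19 (SE 0.24, adjusted p = 0.639) between the clones.

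**Figure D2:**
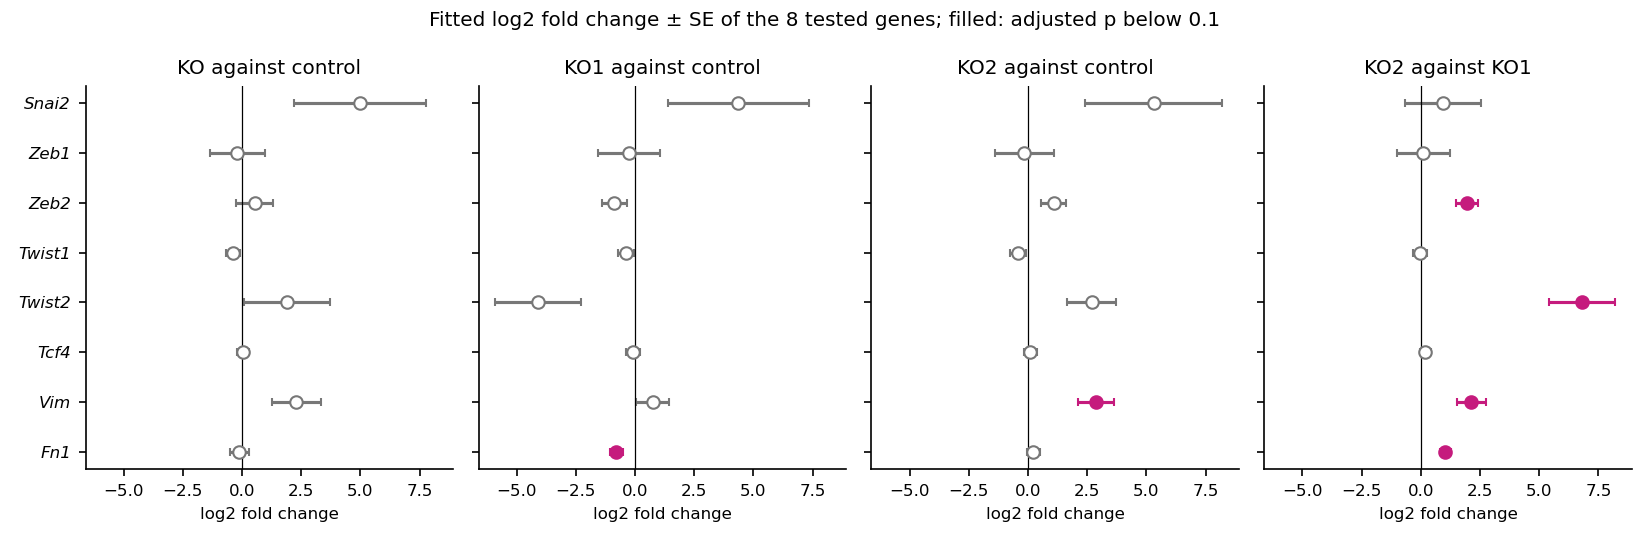
Fitted log2 fold change (x axis) ± SE of the 8 genes that passed the filter on low counts, in 4 comparisons; filled points have an adjusted p below 0.1. Filled are Fn1 in KO1 against control, Vim in KO2 against control, and Zeb2, Twist2, Vim and Fn1 in KO2 against KO1, where the Twist2 value rests on 0 counts in KO1.

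Across the 10 genes, 8 passed the filter on low counts. With all 7 KO libraries as 1 group against control, 0 of the 8 were called at adjusted p below 0.1 by edgeR, against 22.6% of all genes tested. At an unadjusted p under 0.05 there was 1, Vim, with a log2 fold change of 2.29 (SE 1.02, adjusted p = 0.157); DESeq2 called Vim alone (adjusted p = 0.0284), and so did an edgeR fit with 3 groups (adjusted p = 0.0787). In KO1 against control 1 of 8 was called, Fn1, which was lower, where 15.7% of all genes were called lower. In KO2 against control 1 of 8 was called, Vim, which was higher, where 16.5% of all genes were called higher. These 2 comparisons share the control libraries.

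In KO2 against KO1 the 4 genes Zeb2, Twist2, Vim and Fn1 were called, all higher in KO2, where 10.2% of all genes were called higher. Leaving out 1 library gave 2 to 5 called genes, with Zeb2 and Vim lost without KO1 replicate 1 or KO1 replicate 2. Snai2, Zeb1, Twist1 and Tcf4 did not pass. The median log2 fold change of all genes tested was 0.02 in this comparison.

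Libraries of the compared groups did not overlap for 0 of the 8 tested genes in KO against control (34.4% of all genes), 5 of 8 in KO1 against control (66.9%), 1 of 8 in KO2 against control (46.9%) and 2 of 8 in KO2 against KO1 (24.5%). These shares lay near or below those of all genes. The 2 genes in KO2 against KO1 were Twist2 and Fn1, and the 1 in KO2 against control was Vim. Those in KO1 against control included Twist2 and Snai2, whose control libraries held at most 3 and 1 counts. For Twist2 in KO2 against KO1, the lowest KO2 library held 1 count against 0 in KO1.

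Levels were compared between genes as CPM per kb of annotated exon. In control the order was Fn1 (214 ± 3.32 SD, n = 2), Vim (67.3 ± 18.4), Twist1 (19.9 ± 1.15), Tcf4 (6.77 ± 0.282) and Zeb2 (0.922 ± 0.0108), none of these neighbours overlapping in range. Zeb1 followed at 0.0320 ± 0.00318 CPM per kb, and Twist2 (0.0152), Prrx1 (0.0106) and Snai2 (0.00755) overlapped one another. In KO1 the ranges of Fn1 (123 ± 19.3, n = 3) and Vim (113 ± 80.9) overlapped. In KO2 Vim (493 ± 250, n = 4) stood above Fn1 (251 ± 76.5) in the mean, but the ranges overlapped, as did those of Twist1 (15.0 ± 6.06) and Tcf4 (7.29 ± 2.35), and those of Zeb2 (1.95 ± 0.970) and Snai2 (0.341 ± 0.676).

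For each gene with a mean of at least 1 CPM, the tested genes with the most similar pattern over the 9 libraries were found by the root mean square (RMS) difference of centred log2 CPM. These are descriptions over libraries that share groups and clones. Zeb2 was most like Fosl1, an AP-1 subunit gene (RMS 0.27, where Zeb2 itself had an SD of 1.06), and P3h1, a collagen prolyl hydroxylase gene (RMS 0.32). Vim was most like Rgs22 (RMS 0.29, own SD 1.51) and Proz (RMS 0.36), which had low means of 1.64 and 0.619 CPM. Fn1 was most like Dst, which encodes dystonin (RMS 0.11, own SD 0.56), and Zswim4 (RMS 0.13). Twist1 was most like Cep63 (RMS 0.13, own SD 0.43) and Dnaja4 (RMS 0.13). Tcf4 was most like Fars2 (RMS 0.14, own SD 0.32) and Gm10941 (RMS 0.15), the latter with a mean of only 0.322 CPM. The minimum of 1 CPM was not applied to the matches.

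The other EMT transcription factors of the list numbered 12, of which 11 were in the files and 10 were tested. In KO against control 0 rose and 1 fell, Lef1 (log2 fold change -3.85, SE 1.09, adjusted p = 0.0394), where 10.7% of all genes were called lower, and the median of the list was 0.06 against 0.06 for all genes. The Lef1 call was lost without Control replicate 1 (adjusted p = 0.192) or Control replicate 2 (0.229). Snai1, the SNAIL gene, held 14.7 and 15.0 CPM in control, 15.3, 12.9 and 13.9 in KO1, and 19.0, 19.2, 10.4 and 18.2 in KO2; in KO against control its log2 fold change was 0.07 (SE 0.26, adjusted p = 0.890). Between the clones 2 of the 10 were higher in KO2, Foxc2 (1.71, SE 0.35, adjusted p = 0.0187) and Sox4 (0.70, SE 0.25, adjusted p = 0.0963), and 0 lower. Foxc2 was called with each library left out, and Sox4 was lost without any 1 library but KO2 replicate 2 (adjusted p = 0.139 to 0.254).

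The E protein genes encode dimer partners of the TWIST factors. Of 2 such genes other than Tcf4 and 4 Id genes, whose proteins bind E proteins and keep them off DNA, 5 rose and 1 fell in KO against control, with a median log2 fold change of 1.35 against 0.06 for all genes, of which 11.9% were called higher and 10.7% lower. Id2 went from 1.78 and 2.87 CPM in control to 17.0, 12.01 and 11.1 in KO1 and 48.8, 56.9, 84.3 and 35.1 in KO2. The 3 groups did not overlap in any pairing. Its log2 fold change was 4.03 (SE 0.94, adjusted p = 0.0190) in KO against control and 2.07 (SE 0.32, adjusted p = 0.00713) in KO2 against KO1. Id4 rose by 2.26 (SE 0.74, adjusted p = 0.0669), from 0.483 and 0.397 CPM in control. Tcf12, the E protein gene HEB, fell by 0.98 (SE 0.20, adjusted p = 0.0107), from 252 and 258 CPM to 79.1 to 143 CPM in the 7 KO libraries. Among the others, Tcf3 rose by 0.75, Id1 by 1.49 and Id3 by 1.20 on the log2 scale. Without Control replicate 1, or without Control replicate 2, 0 of the 6 were called: adjusted p was then 0.203 and 0.149 for Id2, 0.310 and 0.357 for Id4, and 0.125 and 0.126 for Tcf12.

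All 30 epithelial genes of the list were tested. In KO2 against KO1 0 were called higher and 10 lower, where 9.43% of all genes were called lower, and the median was -0.71 against 0.02 for all genes. The number lower was 21 without KO2 replicate 3 and 4 without KO1 replicate 2. Against control, 11 were called lower in KO2 and 0 higher, where 15.0% of all genes were called lower. That number was 18 without KO2 replicate 3, 4 without Control replicate 1 and 3 without Control replicate 2. In KO1 3 were called higher and 2 lower, where 15.9% and 15.7% of all genes were. The summed level of the 30 genes was 8163 and 8402 CPM in the 2 controls. It was 9102 to 11045 in KO1 and 3924 to 6796 in KO2, so that the 3 groups did not overlap. Abundant genes weigh most in this sum: Krt7 alone had a mean of 789 CPM in control and 2935 in KO1. By gene, 13 of the 30 had a log2 fold change above 0 in KO1 against control and 17 below, with a median of -0.10. In KO against control 3 fell and 0 rose: Esrp1, an epithelial splicing regulator (log2 fold change -1.77, SE 0.30, adjusted p = 0.00523), Marveld3, a tight junction gene (-0.71, SE 0.25, adjusted p = 0.0785), and Cdh1 (-0.65, SE 0.21, adjusted p = 0.0684). Esrp1 was called with each library left out, whereas Cdh1 was lost without Control replicate 1 (adjusted p = 0.221), Control replicate 2 (0.461) or KO2 replicate 1 (0.101), and Marveld3 without either control (0.236 and 0.502) or any 1 KO1 library (0.105 to 0.124). Cdh1 held 759 and 940 CPM in control, 670, 665 and 578 in KO1, and 485, 354, 503 and 541 in KO2. Epcam, an epithelial adhesion gene, was at 460 and 485 CPM in control and between 104 and 488 in the KO libraries, and did not pass (-0.43, SE 0.43, adjusted p = 0.532).

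Some epithelial genes set KO2 replicate 3 apart from the other KO2 libraries in the same way as Vim and Zeb2; the 3 given here were chosen after their values were seen, and their values are a description. Rab25, a small GTPase gene, was at 75.9 and 101 CPM in control, 75.4, 70.5 and 90.7 in KO1, and 6.81, 0.463, 84.9 and 8.20 in KO2. Ap1m2, a subunit of an epithelial sorting adaptor, was at 61.3 and 57.2 CPM in control and at 1.53, 2.74, 38.6 and 4.01 in KO2. For Mal2, a gene of apical transport, KO2 held 9.82, 12.3, 38.9 and 0.143 CPM against 249 and 212 in control. In each of the 3, KO2 replicate 3 was the highest KO2 library. Not every epithelial gene set it apart: Cldn4 was at 230, 403, 449 and 481 CPM in KO2, and Cdh1 was highest in KO2 replicate 4.

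**Figure D3:**
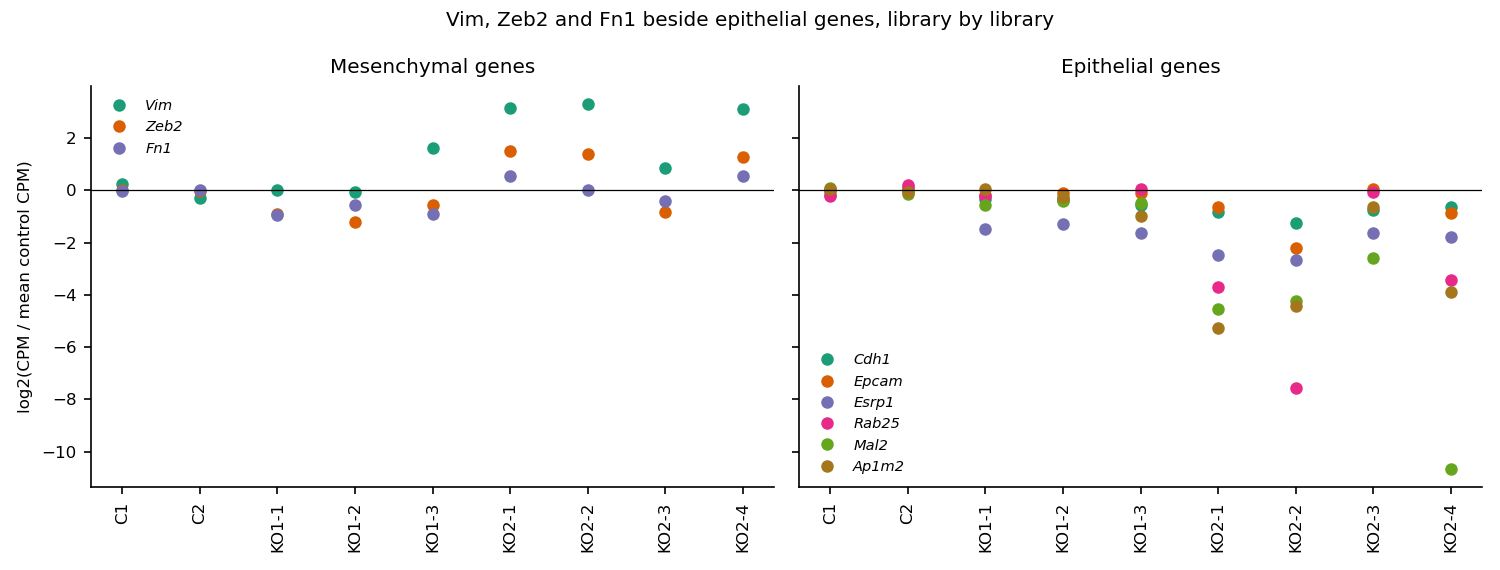
Level of Vim, Zeb2 and Fn1 (left) and of 6 epithelial genes (right) in each of the 9 libraries, as log2 of the ratio of CPM to the mean control CPM; each point is 1 library. Where Vim and Zeb2 are high, in KO2 replicates 1, 2 and 4, Rab25, Mal2 and Ap1m2 are low. KO2 replicate 3 is nearer to control for these 5 genes, whereas Cdh1 is nearest to control in KO2 replicate 4.

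Of 36 other mesenchymal genes, 25 were tested. In KO against control 3 rose and 4 fell, or 7 of 25 against 22.6% of all genes, with a median of 0.29 against 0.06. The largest rises were of S100a4, a calcium-binding protein gene linked to motility (log2 fold change 3.81, SE 0.69, adjusted p = 0.00716, from 1.62 and 2.93 CPM to 8.48 to 49.3), and of Axl, a receptor tyrosine kinase gene (1.29, SE 0.23, adjusted p = 0.00700). The largest falls were of Postn, the matrix gene periostin (-3.53, SE 0.90, adjusted p = 0.0271), and of Col1a1 (-3.00, SE 0.64, adjusted p = 0.0132), which was under 4 CPM in every library. Sparc also rose, and Fap and Ddr2 also fell. Calls were lost for S100a4 (adjusted p = 0.120) and Col1a1 (0.160) without Control replicate 1, for Axl without Control replicate 2 (0.121), and for Postn without either (0.161 and 0.177). Those of Sparc (0.215 and 0.466), Fap (0.271 and 0.443) and Ddr2 (0.360 and 0.338) were also lost without either control, and each of these 3 also without at least 1 KO library. In KO2 against KO1 5 were higher, among them Itgb1 (0.92, SE 0.19, adjusted p = 0.0199), a subunit of the fibronectin receptor, and Cd44 (0.68, SE 0.19, adjusted p = 0.0450), and 1 was lower, Col1a2, where 10.2% of all genes were called higher. The number higher was 2 without KO1 replicate 1 or KO1 replicate 2, 8 without KO2 replicate 3, and 2 with the replicate block, which had 3 lower. Itgb1 was called with each library left out, whereas Cd44 was lost without KO1 replicate 1 (adjusted p = 0.155) or KO1 replicate 2 (0.145), and Col1a2 without KO1 replicate 1 (0.126).

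MaTAR25 ChIRP-seq was the other readout at these genes. The authors called peaks with a HOMER script for replicates, against a Ppib pulldown, giving 4 lists. These were 4T1-even, 4T1-odd and 4T1-total for pools of oligos in 4T1 cells, and NDL-total for MMTV-Neu-NDL mammary tumor cells. The NDL cells differ from 4T1 in the Neu transgene, the tumor subtype and the mouse strain, FVB. The lists held 64607, 61311, 76806 and 70329 peaks, with no replicate values, so nothing here was tested. Taken by the nearest promoter, 10, 9, 9 and 9 of the 10 genes had at least 1 peak. Restricted to peaks with a score of at least 100 these were 4, 5, 4 and 6, and by peaks inside the gene 6, 6, 7 and 7. Over 44585 genes of the count files with a known position, 46.3%, 47.5%, 52.9% and 51.5% had a peak by the nearest promoter, 15.3%, 19.7%, 21.6% and 19.3% one with a score of at least 100, and 26.2%, 26.2%, 30.2% and 29.4% one inside the gene. Over the genes tested, 44.7% to 51.5% had a peak inside. These shares are not matched for gene length. The 4T1-even list held 8877 peaks on chromosome 2 and 0 on chromosome 3, against 4454 to 5666 and 3774 to 4659 in the other lists, so its chromosome 2 entries, which include those at Vim and Zeb2, are uncertain.

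Fn1 had 4 peaks inside the gene in 4T1-total, or 5.91 per 100 kb, against 2.82 per 100 kb of genome in that list. In NDL-total it had 1, or 1.48 per 100 kb against 2.58. The intron peak whose sequence is printed above had a score of 229 in 4T1-even, 275 in 4T1-odd and 251 in 4T1-total, with ranks of 2447, 4956 and 4259. It was not in the NDL-total list. Another Fn1 peak, 9.57 kb from the gene start, had a score of 240 in 4T1-total and 253 in NDL-total. Both of them held 12 bases or more in common with an oligo of the pulldown, as did 24.2% of all peaks in 4T1-total.

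Zeb2 had 5 peaks inside the gene in 4T1-total, 3.74 per 100 kb. The strongest, chr2:45004895-45005657 in an intron 112 kb from the gene start, scored 131 there and 127 in NDL-total, 115 in 4T1-even and 61 in 4T1-odd, so that it was found in all 4 lists. It held no oligo match of 12 bases. Tcf4, the longest of the genes at 346 kb, had 9, 14, 13 and 17 peaks inside it, or 2.60 to 4.92 per 100 kb. Vim, Twist1 and Snai2, the 3 shortest genes, had 0 peaks inside the gene in each of the 4 lists, and no peak of any list overlapped a printed promoter. Prrx1 had a peak in the last of its 3 introns in 4T1-even, 4T1-total and NDL-total, with scores of 168, 182 and 184. Of the genes called between the clones, Fn1, Zeb2 and Twist2 had peaks inside and Vim had none. Of those not called, Tcf4 had peaks inside in 4 lists and Zeb1 in 3, and Twist1 and Snai2 had none.

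**Figure D4:**
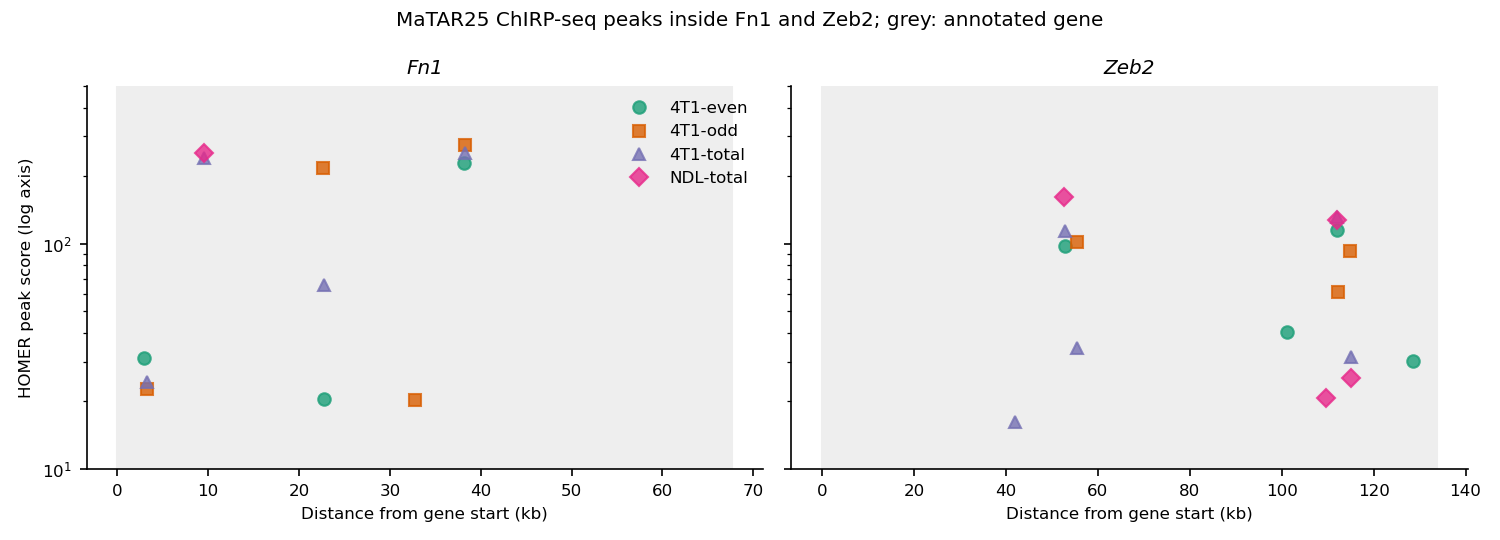
Position of the MaTAR25 ChIRP-seq peaks inside Fn1 and Zeb2, as distance from the gene start in kb, and their HOMER score (log axis); each point is 1 peak of 1 of the 4 lists, and grey marks the annotated gene. In Fn1 the 3 4T1 lists coincide near 38.2 kb, and in Zeb2 the 4 lists coincide near 112 kb.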

How the data were processed

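PolyA RNA-seq of 9 libraries (2 control, 3 KO1, 4 KO2) was analysed. The authors aligned reads to mm10 with STAR and counted them per gene of GENCODE vM5 with HTSeq, and they deposited raw counts. HOMER peak lists with a peak score per peak, called by the authors over the replicates of a pool, were also deposited; versions are not given in the sources used here. Counts outside genes, 33.9 to 37.0% of each library, were set aside. Genes appear in triplicate, with equal values, in the KO2 replicate 2 file, and were used once. Gene IDs were paired with symbols for 44585 of 45318 genes.

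edgeR 4.0.16 (TMM factors, filterByExpr, quasi-likelihood F test, Benjamini-Hochberg) in R 4.3.3 gave adjusted p-values over 15023 genes, called below 0.1, the study's threshold. KO against control was fitted with 2 groups, and the clones with 3. Each SE was derived from the test, as the absolute log2 fold change divided by the square root of F. The biological coefficient of variation was 42.0% and 32.5%. CPM are counts per 1000000 of TMM-scaled library sizes. Fits were tested on simulated data. Exon lengths and positions come from GENCODE vM21 (GRCm38). A count of 0 allows up to 3 counts; intervals are exact at 95% and cover counting error only. The alternatives were DESeq2 1.42.0, RLE factors, other filters, a threshold of 0.05, a replicate block, other groupings and leaving out each library. Peaks were assigned to genes by the nearest promoter and by overlap with the gene.

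Named besides the 10 genes were, from each list, the 2 largest rises and 2 largest falls called in KO against control with a mean of at least 1 CPM, the genes most like each member, and Snai1, Cdh1 and Epcam. Genes of small counts of calls, Rab25, Ap1m2 and Mal2 were added after their values were seen. The members and lists were chosen with earlier results of these data known.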

Additional observations from a re-analysis of the deposited data

Results flagged for a closer look

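Single libraries stood far from the rest of their group by Dixon's test, which flags about 1 in 20 groups by chance. For Snai2, KO2 replicate 2 held 2.74 CPM against at most 0.0204 CPM in the other KO2 libraries and 0.590 CPM in the next of the 7 KO libraries. For Prrx1, KO2 replicate 1 held 1.00 CPM, the next KO library 0.225 CPM. KO2 replicate 3 was the low one for 3 genes: Vim at 575 CPM, where the next KO2 library held 2775 CPM, Snai1 at 10.4 CPM against 18.2 CPM, and Tcf12, lowest of the 7 KO libraries at 79.1 CPM against 130 CPM. The libraries behind the Snai2 and Prrx1 values hold 65 and 36 counts of those genes.

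Among the 10 genes, the genes named from the lists by the fixed rule, and Snai1, Cdh1 and Epcam, 5 differed between KO2 and KO1 by edgeR. The genes most like each member were not counted. The log2 fold change was 1.95 for Zeb2, 6.80 for Twist2 (fitted, with 0 counts in KO1), 2.13 for Vim, 1.03 for Fn1 and 2.07 for Id2, each higher in KO2. Over all genes tested, 10.2% were called higher and 9.43% lower in KO2. Clone and deletion cannot be told apart here, nor in the comparisons with control.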

How the results depend on the processing

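Of 684 values of single genes under the alternatives, 601 kept their direction and their side of the threshold, 42 fell short of it, 12 passed it and 29 changed sign; the cause was not tested unless stated. In KO against control the number of the 10 genes called went from 0 to 1 with DESeq2 and with the 3-group fit (Vim), where Twist2 turned to -0.69, and stayed 0 with each library left out. In KO1 against control it went from 1 to 0 at an adjusted p below 0.05 and with the replicate block, and to 3 with only the 2 groups compared (Snai2, Zeb2, Fn1); leaving out a library gave 0 to 3. In KO2 against control it went from 1 to 2 with RLE factors and with no filter on low counts (Twist2, Vim), and leaving out a library gave 0 to 3. In KO2 against KO1 it went from 4 to 2 with the replicate block (Twist2, Fn1) and to 2 to 5 with a library left out. DESeq2 and the fit without a filter also called Prrx1 there, for 5 in all.

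The replicate numbers do not pair the libraries: over 7 pairs of the same number the deviations from the group means correlated at -0.15 to 0.04. With the replicate block Zeb1 turned to 0.36 in KO, 0.22 in KO1 and 0.43 in KO2 against control, Tcf4 to -0.18 in KO and -0.19 in KO2 against control and -0.030 in KO2 against KO1, and Snai2 to -0.70 in KO2 against KO1. Leaving out single libraries turned signs within these ranges of log2 fold change: Zeb1 -0.53 to 0.028 (KO), -0.92 to 0.14 (KO1), -0.97 to 0.28 (KO2) and -0.70 to 0.76 (KO2 against KO1); Tcf4 -0.088 to 0.087, -0.25 to 0.013, -0.093 to 0.24 and -0.0100 to 0.36 in the same order; Twist1 -0.31 to 0.15 (KO2 against KO1); Vim -0.023 to 1.07 (KO1); Snai2 -0.59 to 7.73 (KO2) and -4.98 to 1.37 (KO2 against KO1). The genes of the other lists named in KO against control kept their sign, but without Control replicate 2 Cdh1 had adjusted p = 0.461 by edgeR and Id2 0.149. The epithelial genes lower in KO2 than in KO1 numbered 4 to 21 over 16 alternatives, with 0 higher in each. Members near peaks went from 10 to 4 (4T1-even), 9 to 5 (4T1-odd) and 9 to 4 (4T1-total) at a score of at least 100, and from 10 to 6 (4T1-even) inside the gene. Only 2 controls and at most 65 counts in a library for Snai2, Zeb1, Twist2 and Prrx1 limit what could be seen.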

Other observations

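The genes here were chosen after their values were seen and do not stand for their lists. Cdh5, the VE-cadherin gene of endothelium, had at most 0.0220 CPM in control, 0 in KO1 and 0.697, 1.39, 0.0905 and 0.675 CPM in KO2, again with replicate 3 lowest of the KO2 libraries, and differed between the clones at adjusted p = 0.0208 by edgeR. Col5a1, a fibrillar collagen gene, was at 144 and 74.9 CPM in control, 13.4, 2.52 and 8.25 CPM in KO1 and 37.3 to 95.4 CPM in KO2, with KO1 below every library of the other groups. Other genes of these kinds went otherwise: Col1a2 was lower in KO2 than in KO1 (log2 fold change -3.44, adjusted p = 0.0321 by edgeR), Col1a1 was under both controls in all 7 KO libraries, and Cd68 reached its highest value, 28.3 CPM, in KO1. Krt7, a simple epithelial keratin, was at 767 and 812 CPM in control, 2643, 2813 and 3348 CPM in KO1 and 651 to 1455 CPM in KO2.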
